A study of Mus musculus with 9 samples.

Results

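Cytokine genes, 10 in all, were followed across the hippocampus of lupus-prone mice: Il1b, Tnf, Il6, Il18, Il33, Csf1, Il34, Tgfb1, Tnfsf13b, which encodes BAFF, and Tnfsf10, which encodes TRAIL. They were listed by name as cytokines of brain inflammation at a time when earlier results of these data were known, and the rule sets no threshold on their values. All 10 were found among the 47643 genes counted. RNA was sequenced from the hippocampus of 3 MRL/mpj mice, 3 MRL/lpr mice and 3 MRL/lpr mice that received mesenchymal stem cells (MRL/lpr+MSC), all at 6 weeks, with 1 library for each animal. The MRL/lpr strain differs from MRL/mpj by lpr, an insertion into Fas, the gene of a death receptor, and clears its lymphocytes poorly; the MRL/lpr+MSC mice carry it too. No treatment is named for the MRL/mpj and MRL/lpr groups, and the source, dose, route and time of the stem cells are not given in the sources used here. The mutation is present in all cells of the animal, so changes of brain cells and of blood cells cannot be told apart by genotype. The labels name C57BL/6 as the strain of all 9 libraries, and the MRL strains were taken from the study.

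Cytokines of the interleukin-1 family (Il1b, Il18, Il33) are made as precursors or released on cell damage and act through paired receptors, and Tnf and Il6 are the classical early products of activated microglia and macrophages. Csf1 and Il34 are both ligands of Csf1r, the receptor on which microglia depend for survival, and Tgfb1 keeps microglia in their resting state. BAFF sustains B cells and is raised in the blood in lupus, and TRAIL is a ligand of the TNF superfamily that can trigger apoptosis through death receptors and is induced by interferons in many cell types.

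Total counts per library ran from 19475804 to 24114666 in MRL/mpj, from 22438063 to 26912031 in MRL/lpr and, for the MRL/lpr+MSC group, from 20014975 to 21914100. Levels are given as CPM (counts scaled to library size) after TMM scaling for library composition, and 3 counts, the most that a count of 0 allows, equal 0.105 to 0.163 CPM. The limit covers counting error only. The 8 microglial marker genes together had 269 to 347 CPM in the 9 libraries and none was at 0, and the 6 neuronal markers had 3612 to 6751 CPM, so the tissue carried the markers of brain. The summed choroid plexus markers reached 9393 CPM in MRL/lpr replicate 2 and 4710 CPM in MRL/lpr+MSC replicate 2, against 73.2 to 1014 CPM in the other 7 libraries. These 2 libraries stand apart, and for several genes below the values without them are given as well. Counts of Fas came to 1.83 ± 0.183 CPM in MRL/mpj, 1.79 ± 0.469 in MRL/lpr and 1.30 ± 0.445 in MRL/lpr+MSC mice (SD, n = 3 each), so its total count did not separate the genotypes. An expression table released with the study gives the values of the libraries labelled MRL/lpr+MSC under headings that read MRL/lpr. The labels were kept here, and an exchange of these 2 labels cannot be told apart from an error in that table. For this reason both groups are set against MRL/mpj below, and the 2 comparisons share the same 3 MRL/mpj libraries.

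Compared per gene length, as FPKM (fragments per kilobase of gene, scaled to library size), the 10 genes spanned a wide range of levels, with Il18 and Il34 at the top and Tnf and Il6 at the bottom. Il18 had a mean of 19.03 FPKM over the 9 libraries (15.0 to 23.5) and Il34 had 18.4 (9.71 to 30.7). Il33 followed at 8.13 FPKM (6.31 to 11.1) and Csf1 at 5.07 (4.14 to 6.93). Between Csf1 and the next gene, Tgfb1 at 1.36 FPKM (1.06 to 1.73), the ranges did not overlap, and this was the single gap of that kind in the order. Tnfsf10 came next at 1.08 FPKM (0.237 to 2.17), and Tnfsf13b lay lower at 0.225 (0.138 to 0.338). Il1b averaged 0.160 FPKM, Tnf 0.0824 and Il6 0.0219, and each was at 0 in at least 1 library. An interleukin kept as a precursor and a microglial survival factor thus had the highest levels, and the classical inflammatory cytokines were close to the limit of counting.

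**Figure D1:**
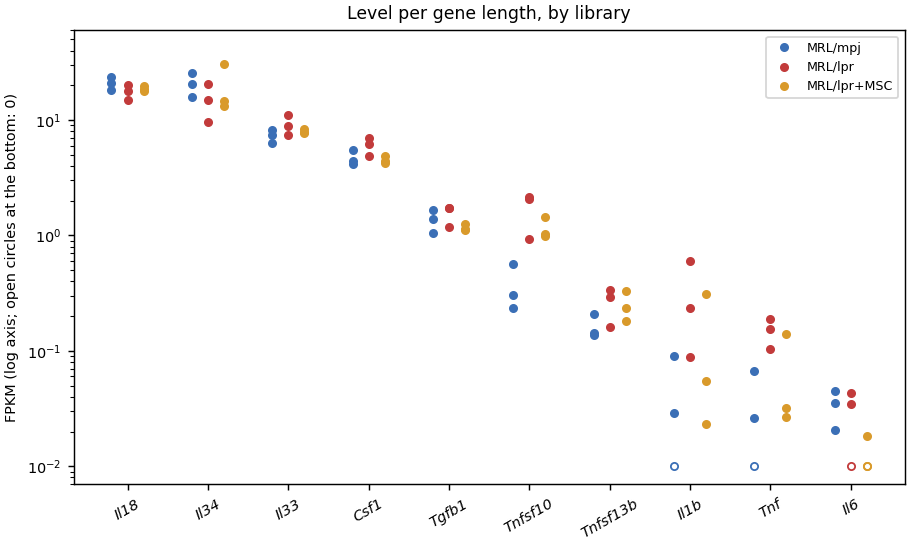
Level per gene length of the 10 cytokine genes in each of the 9 libraries, in FPKM on a log axis, ordered by the mean over all libraries; open circles at the bottom edge mark libraries at 0, where circles of one group lie on each other. Il18, Il34, Il33 and Csf1 lie above 4 FPKM in every library, and Il1b, Tnf and Il6 reach 0.

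The comparisons asked whether the hippocampal cytokine genes differed between lupus-prone and control mice and whether they differed after stem cells. A gene was called at a change of 1.5-fold or more and a limma voom p under 0.05 after Benjamini-Hochberg adjustment over all tested genes. For MRL/lpr against MRL/mpj, 7 of the 10 genes passed the filter on low counts and 0 were called, beside 5.79% of all 16697 genes tested. For MRL/lpr+MSC against MRL/mpj, 7 of 10 were tested and 1, Tnfsf10, was called, beside 3.43% of 16196 genes. For MRL/lpr+MSC against MRL/lpr, 8 of 10 were tested and 0 were called, beside 0.0% of 16758 genes, and the groups overlapped for all 8, where 9.98% of all genes had no overlap. In this last comparison limma voom called 0 genes in all, and 647 had an unadjusted p under 0.05. At an unadjusted p under 0.05 there was 1 of the cytokine genes in each comparison, Tnfsf10 in the first and second and Csf1 in the third, that is 1 of 7, 1 of 7 and 1 of 8, beside 5081 of 16697, 3710 of 16196 and 647 of 16758 over all genes tested. The median log2 fold change of the tested cytokine genes was 0.34, -0.04 and -0.29 in the 3 comparisons, beside 0.02, 0.01 and -0.00 for all genes tested. Il1b, Tnf and Il6 were the genes that failed the filter in the first 2 comparisons, so these counts say nothing of them.

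**Figure D2:**
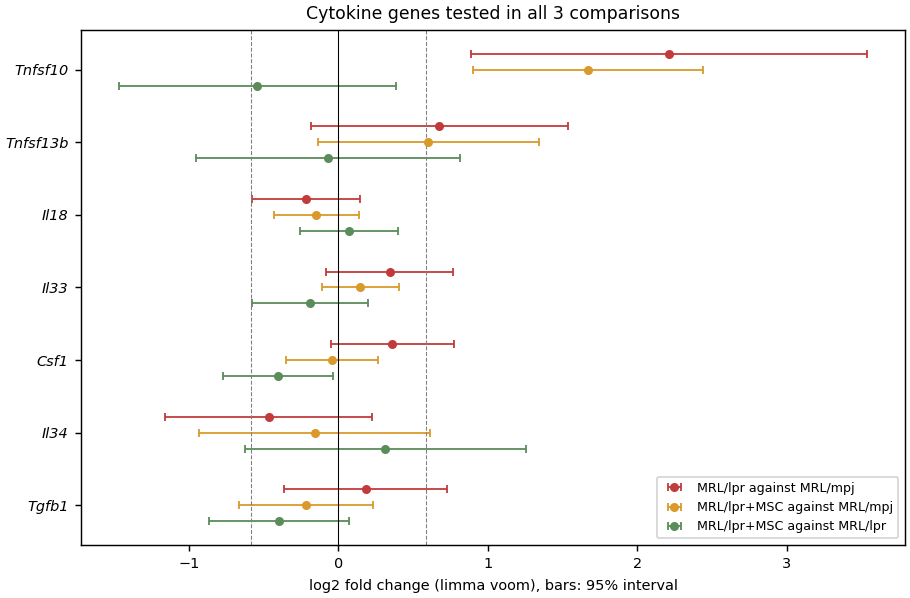
Log2 fold change of the 7 cytokine genes tested in all 3 comparisons, with points for the limma voom estimate, bars for its 95% interval and dashed lines at a 1.5-fold change in either direction. The intervals of Tnfsf10 against MRL/mpj run from 0.89 to 3.54 in MRL/lpr and, for the MRL/lpr+MSC group, from 0.90 to 2.44, and the other intervals include 0 except that of Csf1 in MRL/lpr+MSC against MRL/lpr mice.

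Tnfsf10 (ENSMUSG00000039304; GRCm38 chromosome 3, 27317028 to 27342427, plus strand) was, among the 7 cytokine genes that passed the filter on low counts, the one with the largest difference from MRL/mpj mice, and it was higher in both lupus-prone groups. The 3 MRL/mpj libraries had 1.25, 3.01 and 1.58 CPM, from 25, 70 and 29 counts. The MRL/lpr libraries had 11.5, 10.9 and 4.90 CPM, from 330, 254 and 116 counts. The MRL/lpr+MSC libraries had 7.52, 5.48 and 5.17 CPM, from 145, 118 and 117 counts. Every library of both lupus-prone groups lay above the highest MRL/mpj library, and MRL/lpr and MRL/lpr+MSC libraries overlapped. Among all genes tested the groups did not overlap in 38.0% for MRL/lpr and in 29.6% for MRL/lpr+MSC against MRL/mpj, so lack of overlap alone was common.

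Tnfsf10 rose in MRL/lpr+MSC against MRL/mpj mice, by 1.67 ± 0.33 on the log2 scale (SE; 3.18-fold; limma voom, Benjamini-Hochberg adjusted p = 0.0366). The MRL/lpr estimate was larger, 2.21 ± 0.55 (SE; 4.64-fold with a 95% interval of 1.85 to 11.6), and it missed the threshold at an adjusted p of 0.0557. The spread of the MRL/lpr group was the wider one, at 9.12 ± 3.67 CPM against 6.06 ± 1.28 in MRL/lpr+MSC and 1.95 ± 0.936 in MRL/mpj mice (SD, n = 3 each). MRL/lpr replicate 3 was the low one, and without it the log2 fold change was 2.59 and the gene was called (limma voom, adjusted p = 0.00617). Without MRL/lpr replicate 2, one of the libraries high in choroid plexus markers, the value was 2.06 (adjusted p = 0.0545). The call in MRL/lpr+MSC mice was also narrow. It was lost without MRL/lpr+MSC replicate 2 (log2 fold change 1.71, adjusted p = 0.0813), without replicate 3 (1.75, adjusted p = 0.0757) and without MRL/mpj replicate 1, 2 or 3 (1.39, 2.04 and 1.57, adjusted p of 0.142, 0.0573 and 0.149 from limma voom), and kept without MRL/lpr+MSC replicate 1 (1.51, adjusted p = 0.0206). With all 9 libraries in 1 fit the gene was called in MRL/lpr and not in MRL/lpr+MSC mice, at limma voom adjusted p of 0.0339 and 0.136, so which of the lupus-prone groups passed the threshold depended on the fit. Between MRL/lpr+MSC and MRL/lpr mice the log2 difference was -0.54 with a 95% interval of -1.47 to 0.38 (limma voom, adjusted p = 0.922), which includes both a lower level and a small increase. Tnfsf10 is among the genes that the study itself named from these libraries for cytokine receptor interaction, so its direction here is not independent evidence. The same limit covers Tnfrsf1b, Tgfbr2, Kitl, Il4ra and Il18r1 below, which the study named in that group as well. It also covers Socs1, which the study named for another pathway.

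Interferon-induced genes and, in MRL/lpr mice, markers of T cells were also higher in the lupus-prone libraries, in which Tnfsf10 was higher. The 24 interferon-induced genes had a summed level of 103 to 110 CPM in MRL/mpj and 328, 287 and 158 CPM in MRL/lpr replicates 1 to 3. In MRL/lpr+MSC replicates 1 to 3 they had 139, 157 and 158 CPM. The 7 T cell markers summed to 1.85 to 2.55 CPM in MRL/mpj, to 21.4, 14.2 and 6.55 CPM in MRL/lpr replicates 1 to 3 and to 2.33, 3.71 and 5.13 CPM in MRL/lpr+MSC replicates 1 to 3, and 2 of the 7 were at 0 in all MRL/mpj libraries. Within MRL/lpr mice the 3 measures had the same order of libraries. MRL/lpr+MSC replicate 1, however, had the highest Tnfsf10 of its group and the lowest sums of interferon-induced genes and T cell markers. Its T cell markers lay within the range of MRL/mpj mice. The 8 macrophage and monocyte markers summed to 22.5 to 47.6 CPM in MRL/mpj, 36.6 to 104 CPM in MRL/lpr and 11.9 to 41.0 CPM in MRL/lpr+MSC mice. The 5 endothelial markers summed to 187.3 to 217.5 CPM in MRL/mpj mice. They reached 234.7, 235.8 and 246.1 CPM in MRL/lpr and 272.5, 260.2 and 246.6 CPM in MRL/lpr+MSC replicates 1 to 3. Their order of libraries was that of Tnfsf10 in MRL/lpr+MSC mice and the reverse in MRL/lpr mice. Summed plasma cell markers, given with BAFF below, also lay above MRL/mpj in both lupus-prone groups. The part of these cells in the Tnfsf10 level was not tested, and in bulk tissue a change in the number of cells of a type and a change in RNA per cell cannot be told apart.

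**Figure D3:**
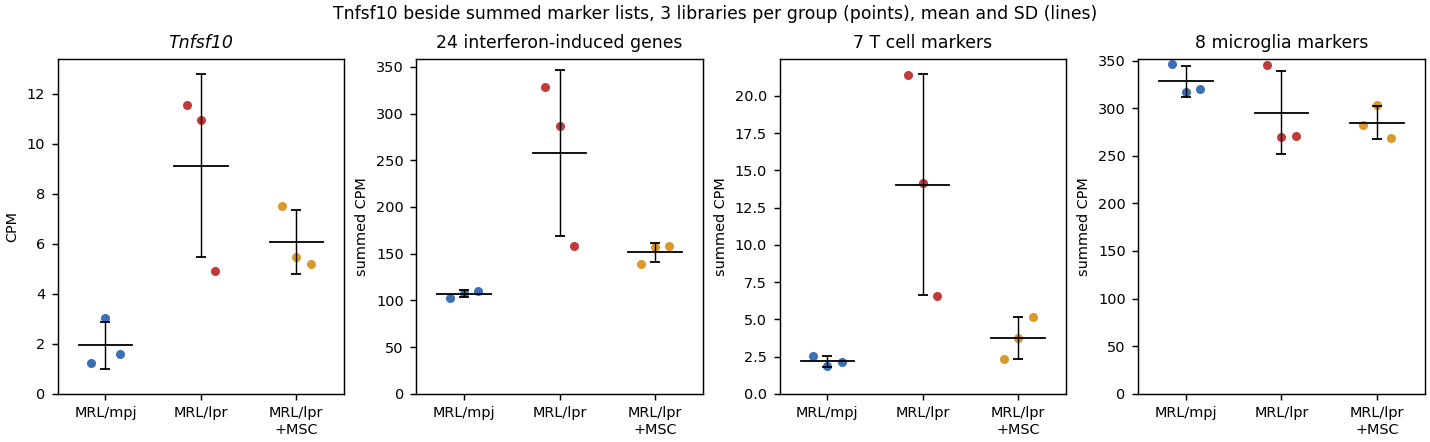
Tnfsf10 beside the summed levels of interferon-induced genes, T cell markers and microglial markers, in CPM, with a point for each library and lines for the mean and SD of each group. MRL/lpr replicate 3, at 4.90 CPM of Tnfsf10, is also the lowest of its group for interferon-induced genes and T cell markers. MRL/lpr+MSC replicate 1, the highest of its group for Tnfsf10, is the lowest for both lists. Microglial markers of MRL/lpr mice overlap with both other groups. Those of MRL/lpr+MSC mice (269.1 to 303.5 CPM) lie below those of MRL/mpj mice (317.0 to 346.9 CPM).

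The promoter of Tnfsf10 is shown because interferon regulatory factors bind short sites that can be read from the letters. RefSeq windows of 250 bases before and 50 after each start site (GRCm38.p6) were searched on both strands, and 9 of the 10 genes, all except Il34, had an entry, in 11 windows. Before the start site of Tnfsf10 the core AANNGAAA of interferon regulatory factors was found at 2 places, shown here with the match in capitals; the first is on the opposite strand.
Tnfsf10, chr3:27317013-27317042: gacttgcttagTTTCACTTttggtctcaac
Tnfsf10, chr3:27317036-27317065: tctcaacagtaAAAAGAAActgcatgggca
The matches begin 53 and 30 bases before the RefSeq start. A longer GENCODE transcript starts at 27317028, within the first match, and the second match lies in the untranslated part of its first exon. The core is short and was found before the start in 21.3% of all 32851 windows. A match describes the letters and shows no binding.

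Genes of 4 TRAIL receptors were counted, and none was called in any comparison. Tnfrsf10b, the death receptor of TRAIL, had 1.41 ± 0.942 CPM in MRL/mpj, 1.10 ± 0.355 in MRL/lpr and 1.08 ± 0.192 in MRL/lpr+MSC mice (SD, n = 3 each), and in MRL/lpr mice its log2 difference was -0.21 (limma voom, adjusted p = 0.800). The decoy receptor Tnfrsf22 had 1.52 ± 0.393, 1.85 ± 0.434 and 1.57 ± 0.405 CPM. The soluble decoy Tnfrsf11b, osteoprotegerin, which also binds RANKL, had 0.667 ± 0.203, 1.05 ± 0.153 and 0.978 ± 0.165 CPM, and its lupus-prone libraries lay above those of MRL/mpj mice without passing the test (adjusted p of 0.217 and 0.363 from limma voom). The second decoy, Tnfrsf23, at 0.265 to 0.485 CPM by group mean, was too low to be tested against MRL/mpj.

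Tnfsf13b (ENSMUSG00000031497; chromosome 8, 10006467 to 10039072, plus strand), BAFF, was low in the hippocampus, with group means above MRL/mpj in both lupus-prone groups and ranges that overlapped. The MRL/mpj libraries had 0.949, 0.990 and 1.42 CPM, from 19, 23 and 26 counts. The MRL/lpr libraries had 2.03, 1.12 and 2.32 CPM, from 58, 26 and 55 counts, and the MRL/lpr+MSC libraries 1.61, 1.25 and 2.25 CPM, from 31, 27 and 51 counts. MRL/lpr replicate 2 and MRL/lpr+MSC replicate 2 fell inside the range of MRL/mpj mice and the other 4 lupus-prone libraries lay above it. The log2 fold change was 0.68 in MRL/lpr (SE 0.36, adjusted p = 0.253) and 0.60 in MRL/lpr+MSC mice (SE 0.31, adjusted p = 0.301, both by limma voom). The 95% intervals, -0.18 to 1.53 and -0.13 to 1.34, include no change and more than a doubling. The difference also missed the threshold with any 1 library left out. With replicate 2 of each lupus-prone group left out, the log2 fold changes were 0.97 (adjusted p = 0.063) and 0.80 (adjusted p = 0.243, both by limma voom). Between the lupus-prone groups the log2 difference was -0.07 (-0.95 to 0.82).

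The letters of an interferon-stimulated response element, GAAANNGAAA, were found before a start site of Tnfsf13b and of no other of the 9 cytokine genes with a window. The match is shown in capitals.
Tnfsf13b, chr8:10006607-10006636: tacaaaaactGAAAGTGAAAtgcggaaggc
It begins 16 bases before the more downstream RefSeq start of the gene and contains the core AANNGAAA. The other RefSeq start lies upstream of the match, which is in the untranslated part of an exon of a longer GENCODE transcript. Of all windows 2.98% hold these letters before the start. The core was found in Il18, Il1b and Il33 as well as in Tnfsf10 and Tnfsf13b, and the letters of a gamma-activated site, TTCNNNGAA, in none of the 9, beside 7.02% of all windows; no match says only that these letters are not in this window.

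Of the receptors of BAFF, 1 of 3 was high enough to be tested. Tnfrsf13b, which encodes TACI, a receptor of B cells and plasma cells, had 1.68 ± 0.282 CPM in MRL/mpj, 2.76 ± 0.797 in MRL/lpr and 2.49 ± 0.475 in MRL/lpr+MSC mice (SD, n = 3 each), with log2 fold changes of 0.69 and 0.56 (adjusted p of 0.176 and 0.232 from limma voom). Tnfrsf13c, the main BAFF receptor of mature B cells, and Tnfrsf17, which encodes BCMA, had group means of 0.0897 to 0.472 CPM and were not tested. The 6 B cell markers summed to 0.980 to 1.60 CPM in MRL/mpj, 3.30 to 6.57 CPM in MRL/lpr and 0.674 to 2.03 CPM in MRL/lpr+MSC mice. The 4 plasma cell markers summed to 2.45 to 3.70, 22.3 to 122 and 6.28 to 15.3 CPM. The part of B lineage cells in the level of Tnfsf13b was not tested, and the library with the lowest Tnfsf13b of the MRL/lpr group, replicate 2, was second in its group for both lists.

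**Figure D4:**
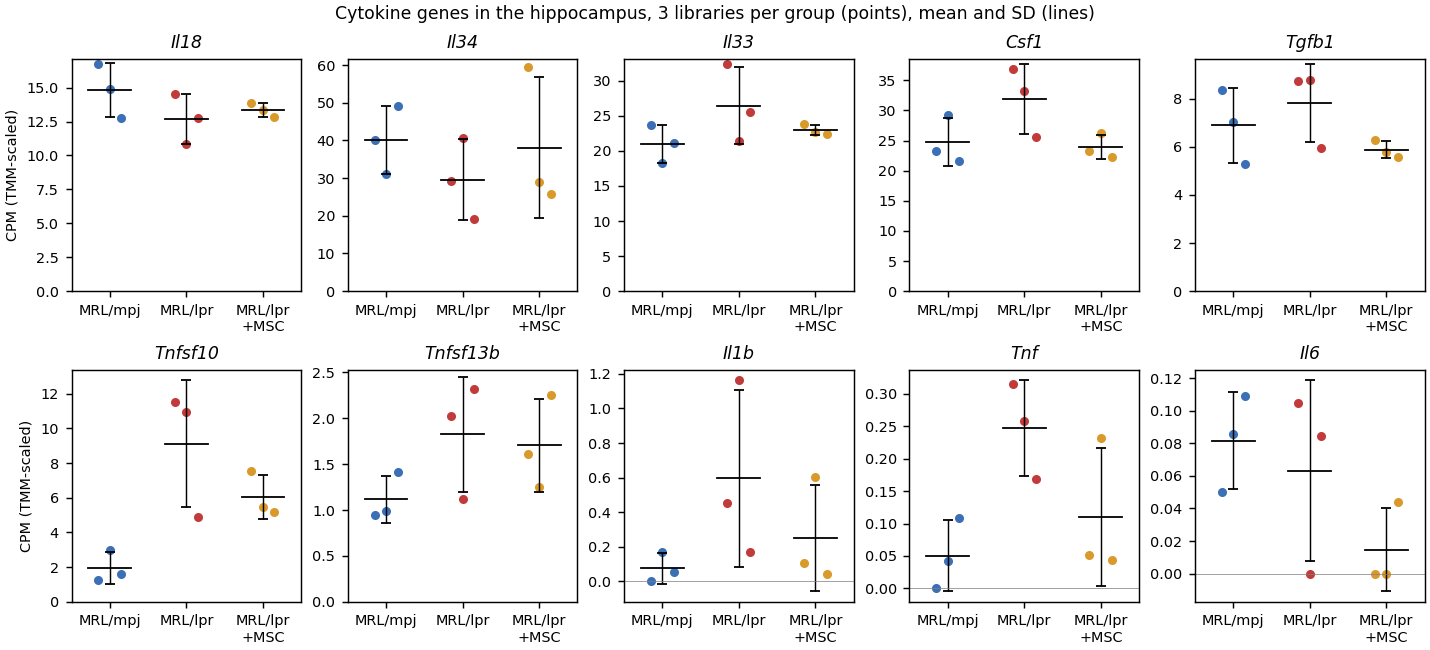
Level of the 10 cytokine genes in each library, in TMM-scaled CPM, with a point per library and lines for the mean and SD of each group. Tnfsf10 and Tnf have no MRL/lpr library within the range of MRL/mpj mice, and the other 8 genes overlap between these 2 groups. Among all genes tested, 38.0% had no overlap between these groups, and Tnf was too low to be tested.

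Among the interleukin-1 family, Il1b (ENSMUSG00000027398; chromosome 2, 129364570 to 129371139, minus strand), the main secreted interleukin-1 of microglia and macrophages, was near the limit of counting. It had 0, 4 and 1 counts in the MRL/mpj libraries, 13, 27 and 4 in MRL/lpr and 2, 13 and 1 in MRL/lpr+MSC mice. The highest library of each lupus-prone group was replicate 2, which also had the most choroid plexus marker RNA, and the part of that tissue was not tested. The summed counts, 44 against 5, gave a ratio of 7.19 between MRL/lpr and MRL/mpj mice, with an exact 95% interval of 2.86 to 23.2 for counting error only. Without MRL/lpr replicate 2 the ratio was 4.01 (1.42 to 13.9), and for MRL/lpr+MSC against MRL/mpj it was 3.11 (1.09 to 10.9) with all libraries and 0.883 (0.137 to 4.54) without MRL/lpr+MSC replicate 2. These intervals leave out the spread between mice, and with the filter on low counts removed Il1b had an adjusted p of 0.134 from limma voom. Il1b passed the filter when MRL/lpr+MSC was set against MRL/lpr, where its log2 difference was -1.43 (SE 1.02, 95% interval -3.90 to 1.04) and ran from -2.34 to -0.68 with each library left out. Its receptors were well measured and not called. The signalling receptor Il1r1 had 24.6 ± 6.03, 27.1 ± 12.8 and 17.9 ± 4.76 CPM and the shared chain Il1rap 82.8 ± 11.1, 75.0 ± 22.3 and 61.8 ± 10.4 CPM in MRL/mpj mice, then MRL/lpr and MRL/lpr+MSC mice (SD, n = 3 each), with no overlap of MRL/lpr+MSC and MRL/mpj libraries for Il1rap (limma voom, adjusted p = 0.142). The antagonist Il1rn had group means of 0.0155 to 0.352 CPM.

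Il18 (ENSMUSG00000039217; chromosome 9, 50554827 to 50581840, plus strand), whose precursor is cut by caspase-1 in the inflammasome, had levels that overlapped between all groups. Its levels were 16.8, 14.9 and 12.8 CPM in MRL/mpj, 14.5, 10.8 and 12.8 CPM in MRL/lpr and 13.9, 13.3 and 12.8 CPM in MRL/lpr+MSC mice. The log2 fold changes from MRL/mpj were -0.21 (95% interval -0.58 to 0.15) and -0.15 (-0.43 to 0.14), and the upper ends of these intervals correspond to 1.11-fold and 1.10-fold. Its soluble antagonist Il18bp, an interferon-induced binding protein, had 1.94 ± 0.134 CPM in MRL/mpj, 4.62 ± 1.52 in MRL/lpr and 2.52 ± 0.266 in MRL/lpr+MSC mice (SD, n = 3 each). The Il18bp libraries of the 2 lupus-prone groups lay above all MRL/mpj libraries, with log2 fold changes of 1.20 (adjusted p = 0.0687) and 0.37 (limma voom, adjusted p = 0.314) that missed the threshold. The receptor chains Il18r1 and Il18rap, which are found on T cells and natural killer cells, came to 0.0310 and 0.0847 CPM for MRL/mpj against 1.11 and 0.421 CPM for MRL/lpr mice and were not tested.

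Il33 (ENSMUSG00000024810; chromosome 19, 29925114 to 29960718, plus strand), an alarmin that in the brain is stored in the nuclei of glia, had 23.7, 18.3 and 21.1 CPM in MRL/mpj, 32.4, 21.4 and 25.6 CPM in MRL/lpr and 23.8, 22.8 and 22.4 CPM in MRL/lpr+MSC mice. MRL/lpr replicate 1 was the highest library, and MRL/lpr replicate 2 lay within the MRL/mpj range. The log2 fold change was 0.34 in MRL/lpr (SE 0.18, adjusted p = 0.241) and 0.15 in MRL/lpr+MSC mice (SE 0.11, adjusted p = 0.476, both by limma voom). With replicate 2 of each lupus-prone group left out, these values were 0.48 (adjusted p = 0.0733) and 0.14 (adjusted p = 0.641, both by limma voom). Its receptor Il1rl1 had 0.0877, 0.421 and 0.105 CPM by group mean and was not tested.

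Tnf (ENSMUSG00000024401; chromosome 17, 35199381 to 35202007, minus strand) had 0, 1 and 2 counts in MRL/mpj, 9, 6 and 4 in MRL/lpr and 1, 5 and 1 in MRL/lpr+MSC libraries. The MRL/lpr libraries all lay above the MRL/mpj libraries, and those of MRL/lpr+MSC mice overlapped with both. Between MRL/lpr and MRL/mpj mice 38.0% of all genes tested had no overlap, so this alone was common. The summed counts, 19 against 3, gave a ratio of 5.17 with an exact 95% interval of 1.52 to 27.3 for counting error only (5.11, 1.41 to 27.96, without MRL/lpr replicate 2), and with the filter removed the adjusted p was 0.101 from limma voom. Of its receptors, Tnfrsf1b, TNF receptor 2, which is found on microglia, endothelium and T cells, rose in MRL/lpr mice. It had 3.12 ± 0.345 CPM in MRL/mpj, 6.57 ± 1.63 in MRL/lpr and 3.99 ± 0.763 in MRL/lpr+MSC mice (SD, n = 3 each), with a log2 fold change of 1.05 (SE 0.25, limma voom, adjusted p = 0.0490) in MRL/lpr and 0.35 (adjusted p = 0.347) in MRL/lpr+MSC mice. Tnfrsf1a, the widely expressed receptor 1, had 10.4 ± 3.01, 16.0 ± 2.45 and 12.8 ± 3.35 CPM, with a log2 fold change of 0.65 in MRL/lpr mice (adjusted p = 0.117).

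Il6 (ENSMUSG00000025746; chromosome 5, 30013114 to 30019981, plus strand) had 1, 2 and 2 counts in MRL/mpj, 3, 0 and 2 in MRL/lpr and 0, 0 and 1 in MRL/lpr+MSC libraries. No library exceeded 3 counts. The summed counts of MRL/lpr and MRL/mpj mice, 5 against 5, gave a ratio of 0.817 with an exact 95% interval of 0.188 to 3.55 for counting error only. For MRL/lpr+MSC against MRL/mpj, 1 against 5 gave 0.194 (0.00411 to 1.74), with an adjusted p of 0.262 from limma voom with the filter removed. Both intervals include no change, so no difference was shown at this depth. The signal chain Il6st, gp130, which several cytokines share, was well measured at 115 ± 6.68 CPM in MRL/mpj, 151 ± 4.78 in MRL/lpr and 134 ± 13.3 in MRL/lpr+MSC mice (SD, n = 3 each). The difference of 0.40 on the log2 scale in MRL/lpr mice had an adjusted p of 0.0217 from limma voom and stayed under 1.5-fold. Il6ra, the specific chain, had 12.3 ± 2.73, 11.8 ± 2.43 and 11.6 ± 1.35 CPM.

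The letters GGGNNTTTCC of an NF-kB site were found before the start of Il6 and Csf1 and of none of the other 7 genes with a window, beside 1.41% of all windows. They are shown because the 2 genes with the same letters had very different levels; the capitals mark the match, which for Csf1 is on the opposite strand.
Il6, chr5:30013060-30013089: tatcaaatgtGGGATTTTCCcatgagtctc
Csf1, chr3:107760604-107760633: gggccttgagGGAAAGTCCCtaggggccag
The Csf1 window lies on the minus strand, and the match begins 154 bases before its start site, and that of Il6 44 bases before. Il6 had a mean of 0.0219 FPKM and Csf1 of 5.07 FPKM over the 9 libraries.

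Csf1 (ENSMUSG00000014599; chromosome 3, 107741048 to 107760469, minus strand), which drives survival and division of microglia, had 23.2, 29.2 and 21.7 CPM in MRL/mpj, 36.9, 33.2 and 25.6 CPM in MRL/lpr and 23.3, 26.2 and 22.3 CPM in MRL/lpr+MSC mice. MRL/lpr replicates 1 and 2 were the 2 highest of the 9 libraries, and replicate 3 lay within the range of both other groups. The log2 fold change was 0.36 in MRL/lpr against MRL/mpj mice (SE 0.17, adjusted p = 0.210) and -0.04 in MRL/lpr+MSC against MRL/mpj mice (SE 0.13, adjusted p = 0.880, both by limma voom). Between MRL/lpr+MSC and MRL/lpr mice it was -0.40 (SE 0.15, 95% interval -0.77 to -0.03), the largest relative to its error among the 8 cytokine genes tested there, with an adjusted p of 0.922.

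Il34 (ENSMUSG00000031750; chromosome 8, 110741829 to 110805924, minus strand), the Csf1r ligand made by neurons, varied widely between mice of each group. Its libraries had 40.2, 31.2 and 49.2 CPM in MRL/mpj, 29.3, 40.5 and 19.05 CPM in MRL/lpr and 59.5, 28.9 and 25.9 CPM in MRL/lpr+MSC mice. Its coefficient of variation was 22.5%, 36.3% and 48.9% in the 3 groups, and MRL/lpr+MSC replicate 1 held the highest level. The log2 fold changes from MRL/mpj were -0.47 (adjusted p = 0.321) and -0.16 (limma voom, adjusted p = 0.816). With replicate 2 of each lupus-prone group left out, they were -0.71 (adjusted p = 0.104) and -0.03 (adjusted p = 0.978, both by limma voom). The 6 neuronal markers summed to 5830, 5426 and 6606 CPM in MRL/mpj, 3892, 4815 and 3612 CPM in MRL/lpr and 6751, 4170 and 4055 CPM in MRL/lpr+MSC replicates 1 to 3. Within each group the library with the most Il34 was also the one with the most neuronal marker RNA, and the part of neurons in the difference was not tested. The receptor of both ligands, Csf1r, was even across groups at 89.9 ± 9.78, 90.1 ± 12.6 and 84.4 ± 5.12 CPM (SD, n = 3 each), with log2 fold changes of 0.00 (95% interval -0.29 to 0.29) and -0.08 (-0.31 to 0.14); a 1.5-fold difference in either direction lies outside both.

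Tgfb1 (ENSMUSG00000002603; chromosome 7, 25687002 to 25705077, plus strand), which restrains microglia and is made largely by them and by vessel cells, had 8.39, 7.05 and 5.28 CPM in MRL/mpj, 8.74, 8.78 and 5.96 CPM in MRL/lpr and 6.28, 5.80 and 5.57 CPM in MRL/lpr+MSC mice. All groups overlapped, with log2 fold changes from MRL/mpj of 0.18 (adjusted p = 0.619) and -0.22 (limma voom, adjusted p = 0.546). Its receptor Tgfbr2 was the receptor gene called in both comparisons with MRL/mpj mice. It had 20.6 ± 0.991 CPM in MRL/mpj, 39.9 ± 9.93 in MRL/lpr and 31.1 ± 4.73 in MRL/lpr+MSC mice (SD, n = 3 each), with log2 fold changes of 0.93 (SE 0.22, adjusted p = 0.0471) and 0.59 (SE 0.12, adjusted p = 0.0446, both by limma voom). The partner chain Tgfbr1 had 47.3 ± 4.91, 44.5 ± 8.19 and 41.3 ± 4.58 CPM, and the accessory receptor Tgfbr3 had 26.6 ± 4.09, 29.95 ± 15.4 and 24.4 ± 4.72 CPM, both with overlapping groups.

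Over the whole list of 23 receptors and soluble antagonists, 15 were tested between MRL/lpr and MRL/mpj mice, of which 2, Tnfrsf1b and Tgfbr2, rose and none fell, with a median log2 fold change of 0.31. Against MRL/mpj, 15 were tested in MRL/lpr+MSC mice and 1, Tgfbr2, rose, with a median of 0.08. Between the lupus-prone groups 17 were tested, none was called and the median was -0.19. Over all genes tested 5.79%, 3.43% and 0.0% were called in the 3 comparisons, with medians of 0.02, 0.01 and -0.00. The calls against MRL/mpj were narrow. None of the 15 or more receptors tested was called in MRL/lpr mice when any one library other than MRL/lpr replicate 3 was left out, and 5 of 19 were called without that library. For MRL/lpr+MSC mice Tgfbr2 missed the threshold with median-of-ratios scaling, under which 0 of the 15 were called, with all 9 libraries in 1 fit (0 of 17), and in 5 of the 6 fits with 1 library left out (all except that without MRL/lpr+MSC replicate 1).

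**Figure D5:**
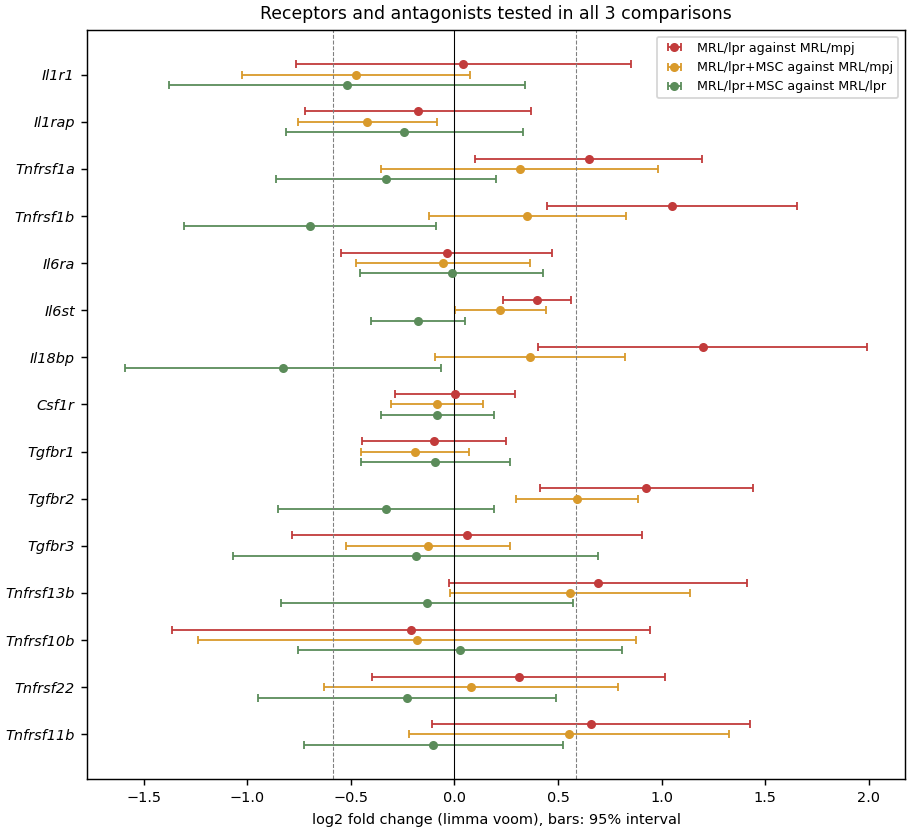
Log2 fold change of the 15 receptors and antagonists tested in all 3 comparisons, with points for the limma voom estimate, bars for the 95% interval and dashed lines at a 1.5-fold change in either direction. Tnfrsf1b, Il18bp and Tgfbr2 lie farthest to the right in MRL/lpr against MRL/mpj mice, at 1.05, 1.20 and 0.93, and Csf1r lies at 0.00.

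The genes that process or activate these cytokines showed few calls. Beside the lists here, 5.79% of all genes tested were called in MRL/lpr and 3.43% in MRL/lpr+MSC mice against MRL/mpj. Of 18 processing genes, 15 were tested in each comparison, with 0 called in MRL/lpr mice and 1 lower in MRL/lpr+MSC mice against MRL/mpj. The called gene was Pycard, the adaptor ASC of the inflammasome, at 1.33 ± 0.216 CPM in MRL/mpj, 0.640 ± 0.444 in MRL/lpr and 0.488 ± 0.0220 in MRL/lpr+MSC mice (SD, n = 3 each), which fell by 1.40 in log2 units (limma voom, adjusted p = 0.0380). Among the 15 other TNF superfamily ligands, 6 and 5 were tested against MRL/mpj and 1 was called, Lta, lymphotoxin alpha, which fell by 1.85 in log2 units in MRL/lpr+MSC mice (limma voom, adjusted p = 0.0469), from 0.831 ± 0.201 to 0.217 ± 0.0815 CPM. Lta lies beside Tnf in the genome and had 0.282 ± 0.261 CPM in MRL/lpr mice, a log2 difference of -1.98 that missed the threshold (adjusted p = 0.117). Of 29 further cytokines found, 12 were tested against MRL/mpj and Kitl, stem cell factor, was the 1 called. It rose in both comparisons, from 20.4 ± 3.82 CPM in MRL/mpj to 32.9 ± 2.66 in MRL/lpr (log2 fold change 0.69, adjusted p = 0.0314) and 36.7 ± 5.34 in MRL/lpr+MSC mice (0.84, adjusted p = 0.0358, both by limma voom). With each library left out in turn these calls were kept in 1 of 6 fits for Pycard (without MRL/lpr+MSC replicate 1), 0 of 6 for Lta, and 3 and 2 of 6 for Kitl; the direction was the same in all of them. With all 9 libraries in 1 fit neither Pycard nor Lta was called.

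Genes induced by interferons, which are not among the 10 cytokines, were counted because TRAIL is one of their products in many cell types. Of 24 interferon-induced genes, 23 were tested between MRL/lpr and MRL/mpj mice, 10 rose and none fell, with a median log2 fold change of 1.67 beside 0.02 for all genes. Among them were Ifit1, from 0.868 ± 0.200 to 3.71 ± 1.05 CPM, and Gbp3, from 3.24 ± 0.507 to 13.7 ± 4.97 CPM. For MRL/lpr+MSC against MRL/mpj 5 of 21 rose, with a median of 0.95, and for MRL/lpr+MSC against MRL/lpr none of 23 was called, with a median of -0.71. Of all genes tested 5.79%, 3.43% and 0.0% were called in the 3 comparisons. With all 9 libraries in 1 fit 12 and 0 of 23 rose in MRL/lpr and MRL/lpr+MSC mice, and in the test against a 1.5-fold change none was called in either group. The counts also rested on single libraries: in MRL/lpr mice they ran from 0 of 24 without any one MRL/mpj library, through 2 of 23 without MRL/lpr replicate 1 and 7 of 23 without replicate 2, to 21 of 24 without replicate 3. The count in MRL/lpr+MSC mice ran from 0 without replicate 3 and 0 or 1 of 21 without an MRL/mpj library, through 2 of 21 without replicate 2, to 9 of 21 without replicate 1. The median of the list stayed between 1.42 and 1.95 and between 0.72 and 0.93 in the same fits.

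Genes that respond to Il6, Tnf, Il1b and Tgfb1 were read by list. Over all genes tested, 5.79% were called in MRL/lpr and 3.43% in MRL/lpr+MSC against MRL/mpj mice, with medians of 0.02 and 0.01. Of 10 genes induced through JAK-STAT3, the pathway of Il6 and related cytokines, all were tested between MRL/lpr and MRL/mpj mice and 3 rose, Pim1, Il4ra and Socs1, with a median log2 fold change of 0.93. Socs1, an inhibitor of cytokine signalling that interferons also induce, had 0.432 ± 0.123 CPM in MRL/mpj against 2.02 ± 0.995 in MRL/lpr mice (limma voom, adjusted p = 0.0473). None of 9 was called in MRL/lpr+MSC against MRL/mpj mice, with a median of 0.26. Of 18 genes responsive to NF-kB, the factor downstream of Tnf and Il1b, 15 were tested in MRL/lpr mice, with a median of 0.39. Of these 1 rose, the adaptor Traf1, from 0.853 ± 0.289 to 5.99 ± 3.11 CPM, and 1 fell, Nfkbiz, from 10.3 ± 1.12 to 5.76 ± 1.06 CPM. None of 14 was called in MRL/lpr+MSC mice. Without MRL/lpr replicate 3 the NF-kB count in MRL/lpr mice was 6 higher and 1 lower of 16, without any 1 MRL/mpj library and with all 9 libraries in 1 fit none of 16 was higher, and without MRL/lpr+MSC replicate 1 the count in MRL/lpr+MSC mice was 2 higher and 1 lower of 15. The JAK-STAT3 count in MRL/lpr mice was 0 without MRL/lpr replicate 1 or any 1 MRL/mpj library. Of 12 TGF-beta responsive genes, 11 were tested, and in MRL/lpr mice Tgif1, a transcriptional repressor, rose and Bhlhe40, a repressor that neuronal activity also induces, fell. Bhlhe40 had 120 ± 2.04 CPM in MRL/mpj, 62.1 ± 2.66 in MRL/lpr and 63.4 ± 9.19 in MRL/lpr+MSC mice (SD, n = 3 each; adjusted p of 8.77e-04 and 0.00610 from limma voom) and was the 1 gene of this list called in MRL/lpr+MSC mice. Bhlhe40 kept its call in 6 of 6 fits with a library left out in each comparison, whereas Pim1, Socs1, Tgif1 and Nfkbiz kept it in 2 of 6, Il4ra in 1 and Traf1 in 3, each losing it without any 1 MRL/mpj library. No gene of these lists was called between the lupus-prone groups.

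The genes whose levels followed each cytokine gene most closely over the 9 libraries were found by Pearson's r of log2(CPM + 0.5) among 14907 genes that averaged 1 CPM or more. All points share the same libraries and their composition, so the values are given as a description. The closest to Tnfsf10 were Hdhd3 (r = 0.99), Ccdc80 (0.98) and Sp110 (0.97), and to Tnfsf13b Pgbd1 (0.97), Ccdc160 (0.97) and Aqp9 (0.95). Il34 was followed by Tesc (0.99), Tnfaip8l3 (0.99) and Nwd2 (0.98). The nearest to Csf1 were Ifrd2 (0.95), the monocyte gene Ly6c2 (0.95) and Mbd1 (0.94), and to Il33 Tmem80 (0.96), Gm11696 (0.94) and Tm6sf1 (0.93). Tgfb1 was nearest to Gm11767 (0.96), the matrix gene Dcn (0.94) and Mms19 (0.92). Il18, the gene that varied least, had the lowest values, with Npat (0.92), Gm5900 (0.92) and 9430053O09Rik (0.90).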

How the data were processed

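Hippocampal RNA was sequenced with 1 library per mouse. Per the study's methods, the authors used STAR for alignment to mm10 and HTSeq for counts per gene, whereas the submitters' processing notes name TopHat2 and GRCm38. Whether counting used strand is not stated. The deposited matrix holds these counts for 47643 genes, with no normalization, in columns set apart by a character that kept the unit from being registered as counts. The planned quasi-likelihood test on counts was therefore not run, and limma voom took its place, as the plan provided. The authors also deposited FPKM per library, made from gene length and count, which served to compare levels between genes. Of the columns of per-sample values, 0 lacked a sample.

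Counts were scaled by TMM. Genes entered a test with at least 15 counts in total and, in 3 libraries, the CPM that 10 counts give at the median library size. limma voom (R 4.3.3, limma 3.58.1, statmod 1.5.0) was fitted to the 6 libraries of each comparison, with robust moderation of the variances, and p-values were adjusted by Benjamini-Hochberg across every gene tested. The fit was tested on simulated counts with the same dispersion for every gene and no outlying library. That test does not show how the fit performs at the spread between these mice. p-values set the difference between groups against the spread between these mice, with variances moderated over all genes tested. The 10 genes and all lists were chosen with earlier results of these data known. Named genes are the 10 cytokine genes, their receptors, called genes of the other lists (up to 5 a list by smallest adjusted p), the 3 closest genes by r, and markers beside a result; not all of these are printed. Alternatives were median-of-ratios scaling, 2 other filters, 1 fit of all 9 libraries, testing against a 1.5-fold change, the replicate number as a block, each library left out and, added after the data were seen, library quality weights. Promoter windows are from RefSeq, and positions and symbols from GENCODE, on GRCm38; 47224 genes had a symbol.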

Additional observations from a re-analysis of the deposited data

How the results depend on the processing

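Of 285 alternative values of the 22 log2 fold changes, 265 kept direction and call, 8 lost the call, 4 gained it and 8 changed sign. The 12 changes of call are all of Tnfsf10. In MRL/lpr against MRL/mpj mice Tnfsf10 was called with all 9 libraries in 1 fit (log2 fold change 2.21, 1 cytokine gene called), the replicate block (2.22, 1 called) and library quality weights (2.44, 1 called), and ran from 1.94 to 2.61 with each library left out, where 0 to 1 was called. In MRL/lpr+MSC against MRL/mpj mice it was not called in the test against a 1.5-fold change (1.67, 0 called), with all 9 libraries in 1 fit (1.66, 0 called) or with the replicate block (1.62, 0 called), and ran from 1.39 to 2.04 with each library left out, where 0 to 1 was called. The cause of these changes was not tested.

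With the replicate block 15 of 23 interferon-induced genes and 4 of 15 receptors and antagonists were called in the first comparison. In MRL/lpr+MSC against MRL/mpj mice the block gave 0 of 21 and 0 of 15, and 1 call, of a TGF-beta responsive gene, over all lists of cytokines, receptors, processing genes and responsive genes.

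Counts over all genes moved more. In MRL/lpr against MRL/mpj mice 967 genes were called, 104 against a 1.5-fold change, 2065 with quality weights and 165 to 1695 with a library left out (1695 without MRL/lpr replicate 2). In MRL/lpr+MSC against MRL/mpj mice 556 were called, 100 against a 1.5-fold change, 280 with the replicate block, 1177 with quality weights and 193 to 1514 with a library left out (1514 without MRL/lpr+MSC replicate 1). MRL/lpr+MSC against MRL/lpr mice had 0 in every setting run.

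The sign changes were small values that were never called. In MRL/lpr+MSC against MRL/mpj mice Csf1 ran from -0.13 to 0.068 and Il34 from -0.51 to 0.054 with a library left out. In MRL/lpr+MSC against MRL/lpr mice Il18 ran from -0.041 to 0.18, and was -0.014 with quality weights, Il34 from -0.056 to 0.55 and Tnfsf13b from -0.37 to 0.14. Same-numbered replicates of the groups correlated at -0.02, 0.13 and 0.05, at -0.06, 0.13 and 0.22, and at -0.20, 0.25 and 0.40 in the 3 comparisons, so the numbers were not taken to pair mice; not every library correlated best with its own number. The motif counts of the cytokine genes were the same over the whole window. The edgeR and DESeq2 tests were not run. At this depth Il1b, Tnf and Il6 could hardly be measured.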
